A study of Mus musculus with 8 samples.

Results

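The genes described here are 34 contractile and actin cytoskeleton genes, chosen by name, among 18193 genes measured on 8 expression arrays. Each gene was read through the probe set that carries its symbol alone and had the highest mean over the arrays, and all 34 were measured. They were divided by role into 16 genes of the smooth muscle apparatus, 10 of the nonmuscle apparatus, 6 of focal adhesions and actin anchorage, and 2 transcription factors. The cells were primary mesenchyme from the palates of C57BL/6J mouse embryos at embryonic day 13.5, grown in culture and collected after 2 passages. The 4 mutant arrays came from Tgfbr2 fl/fl; Wnt1-Cre embryos and the 4 control arrays from Tgfbr2 fl/fl embryos, as the genotype labels give them. By these labels both genotypes carried the floxed alleles of this TGF-beta receptor gene and mutants alone carried Cre, although the titles of the control samples call them wildtype. Wnt1-Cre acts in the neural crest and its descendants, and cells of other origin in the culture keep the floxed receptor. An effect of Cre itself cannot be told apart from that of the deletion. Separate embryos for the arrays are not stated in the labels, and the p-values rest on the scatter among these 8 arrays, some of which may be technical.

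Contractile cells pull on their surroundings through bundles of actin filaments and myosin. In smooth muscle and in myofibroblasts the filaments contain smooth muscle alpha-actin, and calponins, transgelins, tropomyosins and caldesmon decorate them. Nonmuscle myosins drive the same movement in other cells, and focal adhesions tie the filaments through integrins to the matrix. Serum response factor (SRF), with myocardin or related cofactors, activates many of these genes by binding the CArG box, and TGF-beta is a classical inducer of the smooth muscle genes in fibroblasts.

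CArG boxes were searched on both strands in promoter windows of the RefSeq GRCm38.p6 table, from 250 bases before to 50 after each annotated start. Only exact matches to CCWWWWWWGG, with W for A or T, were counted, so a window without one may still hold an SRF site. The Acta2 window, for example, holds CCCTATATGG, which is 1 base away from this pattern. Windows were found for 29 of the 34 genes, and the table has no entry for Csrp2, Tagln, Actg2, Myh11 and Myocd. A CArG box stood in windows of 5 of these 29 genes (17.2%), against 1.81% of the 27025 genes in the table. The 5 were Srf, Myl9, Cnn2, Vcl and Myl6. A window of 1 gene from each role group is printed, with each exact match in capitals, 5′ to 3′ on the strand of the gene. These genes were taken because an exact SRF site can be seen in them. In Srf (chr17:46556113-46556412, minus strand) the boxes began 82 and 62 bases before the start. In Myl9 (chr2:156775214-156775513, plus strand) the box began 161 bases before it, in Cnn2 (chr10:79988350-79988649, plus strand) 56, and in Vcl (chr14:20929148-20929447, plus strand) 227.
Srf: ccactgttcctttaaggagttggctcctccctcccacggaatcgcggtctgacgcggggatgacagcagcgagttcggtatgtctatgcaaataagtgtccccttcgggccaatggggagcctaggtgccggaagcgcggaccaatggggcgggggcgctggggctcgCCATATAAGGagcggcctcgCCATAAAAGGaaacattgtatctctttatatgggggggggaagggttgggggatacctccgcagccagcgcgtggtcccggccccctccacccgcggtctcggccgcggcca
Myl9: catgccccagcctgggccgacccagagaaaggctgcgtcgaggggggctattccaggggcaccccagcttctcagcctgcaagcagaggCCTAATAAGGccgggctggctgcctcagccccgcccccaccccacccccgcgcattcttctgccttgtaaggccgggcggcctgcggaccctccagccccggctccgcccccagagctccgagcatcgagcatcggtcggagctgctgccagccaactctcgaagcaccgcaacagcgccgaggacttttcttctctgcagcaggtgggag
Cnn2: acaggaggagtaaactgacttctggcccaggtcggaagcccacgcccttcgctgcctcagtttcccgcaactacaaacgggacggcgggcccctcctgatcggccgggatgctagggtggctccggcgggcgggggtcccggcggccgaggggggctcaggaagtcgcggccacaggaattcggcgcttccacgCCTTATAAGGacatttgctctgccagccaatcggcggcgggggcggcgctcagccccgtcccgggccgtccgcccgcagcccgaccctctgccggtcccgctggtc
Vcl: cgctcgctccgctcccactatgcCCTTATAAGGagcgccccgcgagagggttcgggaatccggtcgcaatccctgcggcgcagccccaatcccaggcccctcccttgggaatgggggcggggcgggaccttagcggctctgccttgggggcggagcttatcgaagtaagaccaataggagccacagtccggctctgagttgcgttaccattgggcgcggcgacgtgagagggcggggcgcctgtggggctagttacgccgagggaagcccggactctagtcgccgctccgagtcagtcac

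The shorter motif CAGAC, the core letters of Smad binding sites, was searched on both strands and stood in windows of 58.6% of the 29 genes and 53.2% of all genes in the table. None of the 3 Limch1 windows held an exact CArG match. The most upstream of them (chr5:66745639-66745938, plus strand) is printed because Limch1 is one of the genes that changed, with the CAGAC match, read on the opposite strand, in capitals.
Limch1: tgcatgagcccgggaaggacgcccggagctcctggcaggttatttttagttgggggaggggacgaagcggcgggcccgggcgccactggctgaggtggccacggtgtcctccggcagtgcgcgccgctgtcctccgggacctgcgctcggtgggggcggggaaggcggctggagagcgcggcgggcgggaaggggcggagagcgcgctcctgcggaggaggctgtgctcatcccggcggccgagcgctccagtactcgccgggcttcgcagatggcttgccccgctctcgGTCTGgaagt

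Limits that touch every value are given first. The brightest of 3 probe sets for Tgfbr2 had a mean log2 intensity of 12.42 ± 0.47 in mutant and 12.04 ± 0.40 in control arrays (SD, n = 4 each). No source used here places these probes inside or outside the deleted exon, so they are no check of the genotypes. No label names a batch, but the hybridisation spike-in controls set replicates 1 and 2 of both genotypes apart from replicates 3 and 4, and labelling controls set mutants 3 and 4 and control 3 apart from the other arrays. Of 10 palatal mesenchyme markers 8 lay above the median probe set on every array, while Osr2, a transcription factor of the palatal shelves, lay below it on all 8. Markers of macrophages were bright throughout, with a median difference of 0.81 and all 21 above 0, none past the test. Of them, 20 lay above the median probe set on every array, and their mean log2 intensity was 13.24, 13.22, 13.22 and 11.03 in mutants 1 to 4, against 12.42, 12.63, 11.14 and 10.99 in controls 1 to 4. Markers of skeletal muscle averaged 6.12 to 6.41 in mutant and 6.10 to 6.39 in control arrays. Those of pericytes and vascular smooth muscle averaged 7.47 to 7.93 in mutant and 7.75 to 8.33 in control arrays. Of these 9 genes 6 differed below 0 and 3 above, from -1.16 (Mcam) to 0.05 (Higd1b). On every array 5 of them lay above the median probe set. Cspg4 differed by -0.72 without overlap, and none of the 9 passed the test. Most epithelial markers were dim, but their mean did not overlap between genotypes, at 6.79 to 6.98 in mutant and 6.62 to 6.76 in control arrays. Of these 6 genes 3 differed above 0 and 3 below, and 2 lay above the median probe set on every array. At an unadjusted p under 0.05, 2 were higher, and none passed the test. Cdh1, the epithelial cadherin gene, differed most, by 1.47, and the others ran from -0.38 (Krt18) to 0.22 (Krt14). Endothelial markers averaged 6.02 to 6.25 in mutant and 5.87 to 6.12 in control arrays. In such mixed cultures, fewer cells of a type and less RNA per cell cannot be told apart.

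Of the 34 genes, 2 fell in mutant cells and 0 rose (limma, Benjamini-Hochberg adjusted p under 0.05 over all genes), where 0.066% of all genes fell and 0.0879% changed in either direction. They were Csrp2, which encodes a LIM domain protein of smooth muscle, and Limch1, which encodes an actin-binding protein that in human cells activates nonmuscle myosin. At an unadjusted p under 0.05, 5 genes were lower and 0 higher, against 9.69% and 5.84% of all genes. The median difference, mutant minus control, was -0.21 on the log2 scale over the 34 genes and -0.01 over all genes. The difference was below 0 for 25 of the 34 genes, against 51.7% of all genes.

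**Figure D1:**
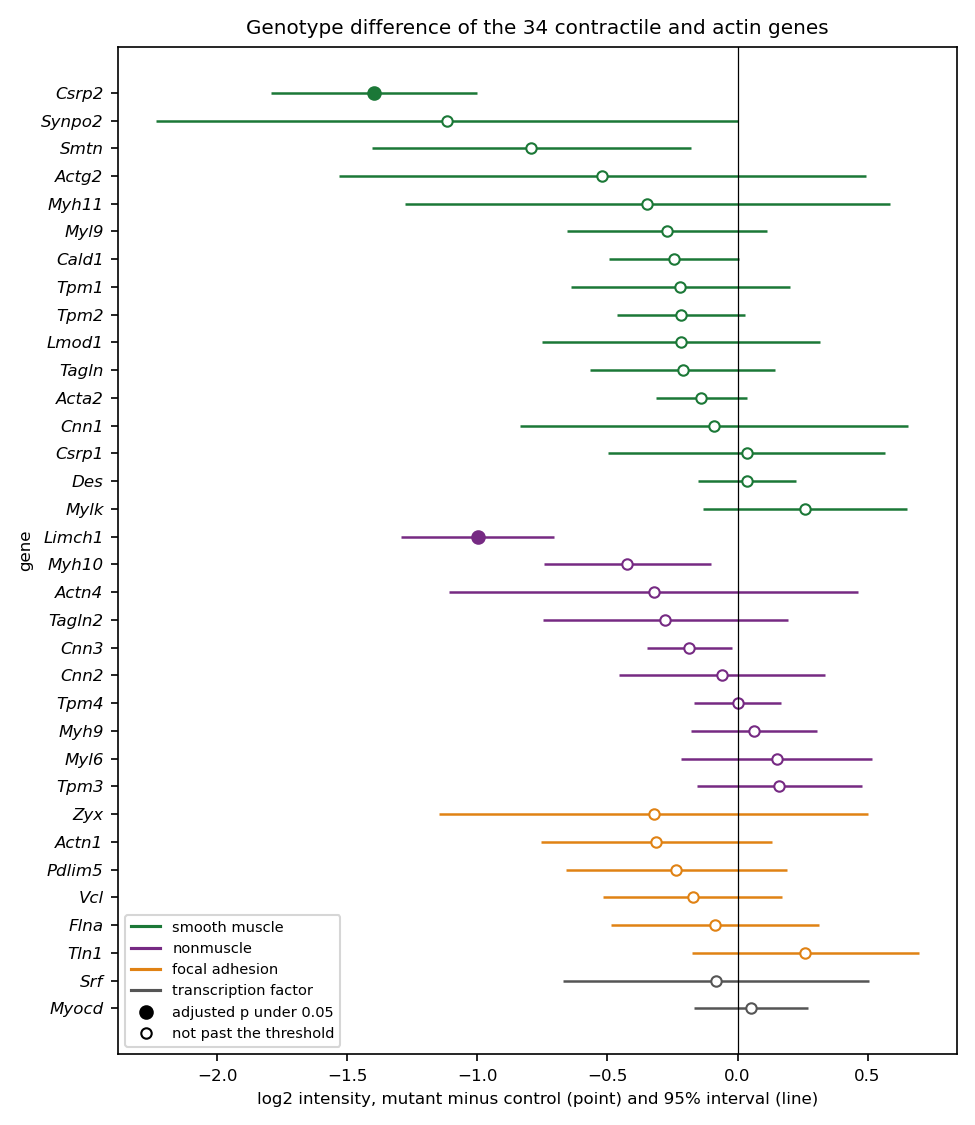
Difference in log2 intensity (horizontal axis, mutant minus control, with 95% interval) for each of the 34 genes, ordered within their role group, with filled points for genes past the threshold. Only Csrp2 at -1.40 and Limch1 at -0.999 are filled, and the intervals of most other genes cross 0.

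Csrp2 showed the strongest difference of the 34 genes. Its log2 intensity was 10.61, 10.96, 10.77 and 11.32 in mutants 1 to 4, against 12.18, 12.17, 12.66 and 12.24 in controls 1 to 4. Every mutant array lay below every control array, with a gap larger than the range of either genotype. The difference was -1.40 (SE 0.17, 95% interval -1.79 to -1.0016), a level 2.63-fold lower in mutant cells, with adjusted p = 0.0486 in limma. Replicates 1 and 2 alone gave -1.39, replicates 3 and 4 alone gave -1.40, and a fit that adds the macrophage mean gave -1.20 (SE 0.13). The call depends on single arrays: with 1 array left out at a time the difference was largest without mutant 4 (-1.53) and smallest without control 3 (-1.28), and of these fits Csrp2 passed only in the one without mutant 4. Over all alternatives its adjusted p in limma ran from 0.00374 to 0.819. Csrp2 was read by 1 probe set, so no second probe set checks it.

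Csrp1, the sister LIM protein gene, gave 12.31, 12.59, 12.81 and 13.28 in mutants 1 to 4, against 12.65, 12.55, 12.44 and 13.20 in controls 1 to 4. The genotypes overlapped, and the difference was 0.03 (95% interval -0.50 to 0.57, adjusted p = 0.960 in limma). The log2 ratio of Csrp2 to Csrp1 within an array ran from -2.04 to -1.63 in mutants and from -0.96 to 0.21 in controls, so this ratio did not overlap between genotypes. The ratio differed by -1.43 (exact two-sided permutation p = 0.0286, the lowest p possible with 4 arrays per genotype; the adjusted value for 16 pairs of related genes was 0.152).

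Limch1 gave 7.61, 7.60, 7.60 and 7.72 in mutants 1 to 4, against 8.68, 8.28, 8.65 and 8.92 in controls 1 to 4. The mutant arrays were nearly equal and all lay below the lowest control array. The difference was -0.999 (SE 0.13, 95% interval -1.29 to -0.70), a level 2.00-fold lower in mutant cells, with adjusted p = 0.0495 in limma. It was -0.87 and -1.12 within the hybridisation batches and -0.89 (SE 0.12) with the macrophage covariate. A second probe set, dimmer than the median probe set, differed by -0.97, and the 2 dimmest by -0.09 and 0.05. With all 4 probe sets averaged the difference was -0.50 and the call ended (adjusted p = 0.162 in limma, in a range of 0.0137 to 0.819 over all alternatives). Leaving out 1 array at a time gave -1.12 without control 2 to -0.90 without control 4, and Limch1 passed without control 2, control 4 or mutant 4 and in no other of these fits.

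The smooth muscle apparatus had a median difference of -0.22 over 16 genes, of which 1 fell, 0 rose and 13 were below 0. Smoothelin, encoded by Smtn, is a marker of contractile smooth muscle. It gave 7.15, 7.75, 8.14 and 8.36 in mutants 1 to 4, against 8.39, 8.38, 9.04 and 8.77 in controls 1 to 4. The genotypes just failed to meet, since mutant 4 lay next to controls 1 and 2. The difference was -0.79 (SE 0.27, adjusted p = 0.242 in limma), -0.94 and -0.65 within the hybridisation batches, and -0.51 with the macrophage covariate. The actin-bundling protein gene Synpo2 differed by -1.12 with a wide interval (-2.23 to 0.00). Its mutant values ran from 6.13 to 7.56 and its control values from 6.72 to 8.78, and it lay above the median probe set on 4 of 8 arrays. The difference was -0.57 and -1.66 within the hybridisation batches and -0.45 with the macrophage covariate. The 3 further probe sets, all dim, differed by -0.13 to -0.19, and the average of all 4 by -0.40.

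The classical smooth muscle genes did not pass the test. Acta2, smooth muscle alpha-actin, gave 14.58, 14.70, 14.65 and 14.79 in mutants 1 to 4, against 14.75, 14.77, 14.84 and 14.91 in controls 1 to 4. Only mutant 4 reached into the control range, and the difference was -0.14 (95% interval -0.31 to 0.04, adjusted p = 0.414 in limma). These values lie close to the highest in the table, 15.18, where array signals have little room to differ, and the probe set belongs to a type whose probes can match several related transcripts, such as other actins. Tagln, transgelin, gave 13.94, 14.08, 14.12 and 14.49 in mutants 1 to 4, against 14.19, 14.16, 14.44 and 14.68 in controls 1 to 4. Mutant 4 was above 3 of the 4 control arrays, and the difference was -0.21 (95% interval -0.57 to 0.14). Cnn1, the smooth muscle calponin, gave 12.02, 12.48, 12.20 and 12.85 in mutants 1 to 4, against 12.01, 11.91, 12.65 and 13.34 in controls 1 to 4. Here the mutants lay within the range of the controls, and the difference was -0.09 (95% interval -0.83 to 0.65), with 0.29 in the first hybridisation batch and -0.47 in the second.

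**Figure D2:**
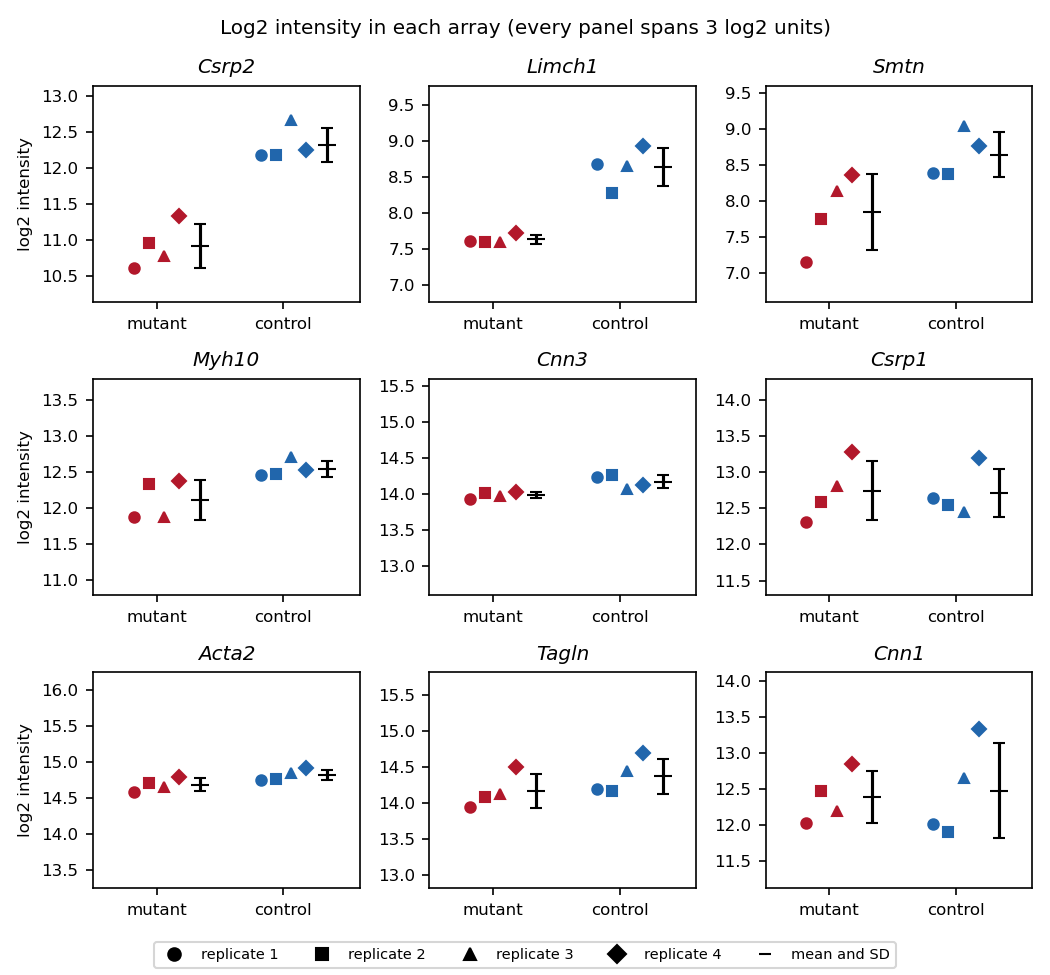
Log2 intensity (vertical axis) of 9 genes in each array, mutants left and controls right, with a symbol for each replicate and the mean and SD beside them. Csrp2 and Limch1 separate widely, Smtn, Myh10 and Cnn3 narrowly, and the genotypes overlap for Csrp1, Acta2, Tagln and Cnn1.

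Myh11, smooth muscle myosin heavy chain, gave 6.53, 6.75, 6.71 and 7.69 in mutants 1 to 4, against 6.53, 6.85, 7.33 and 8.35 in controls 1 to 4. It lay above the median probe set, 6.94, on 3 arrays, mutant 4 and controls 3 and 4, so this definitive smooth muscle marker was dim in most cultures of both genotypes. The difference was -0.35 (95% interval -1.28 to 0.59). The enteric smooth muscle actin gene Actg2 varied widely within both genotypes, from 11.19 to 12.40 in mutants and from 11.54 to 13.42 in controls, and differed by -0.52. That value was -0.05 and -0.99 within the hybridisation batches, and single arrays moved it to -0.80 (without control 2) and -0.17 (without control 4). The regulatory light chain gene Myl9, the caldesmon gene Cald1 and the tropomyosin genes Tpm1 and Tpm2 differed by -0.27, -0.24, -0.22 and -0.22. For the actin nucleator gene Lmod1 the difference was -0.22, for desmin (Des) 0.04 and for Mylk, the kinase that activates myosin, 0.26. None of these genes passed. Further probe sets of Cald1 differed by -0.60, -0.37, 0.02 and 0.38. The last of them, brighter than the median probe set, had every mutant above every control.

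The nonmuscle apparatus had a median difference of -0.12 over 10 genes, of which 1 fell, 0 rose and 6 were below 0. The genotypes did not overlap, with mutants lower, for 3 of them, and for 5 of all 34 genes, against 5.18% of all genes. For the probe set used, no gene of the 34 was higher without overlap, against 2.89% of all genes. Myh10, the heavy chain of nonmuscle myosin IIB, gave 11.88, 12.33, 11.88 and 12.38 in mutants 1 to 4, against 12.46, 12.47, 12.70 and 12.53 in controls 1 to 4. The gap between mutant 4 and control 1 was small, and the difference was -0.42 (SE 0.14, adjusted p = 0.233 in limma), or -0.30 with the macrophage covariate. The other widespread nonmuscle heavy chain, Myh9, differed by 0.06. Myh9 over Myh10 averaged 0.97 ± 0.23 on the log2 scale in mutant arrays and 0.49 ± 0.17 in control arrays (SD, n = 4 each, exact two-sided permutation p = 0.0571, 0.229 adjusted over the 16 pairs).

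Cnn3, the calponin of nonmuscle cells, gave 13.93, 14.01, 13.97 and 14.03 in mutants 1 to 4, against 14.23, 14.26, 14.06 and 14.12 in controls 1 to 4. The genotypes did not overlap, but the lowest control, control 3, lay just above the highest mutant, mutant 4. The difference was -0.18 (SE 0.07, adjusted p = 0.279 in limma) and -0.20 with the macrophage covariate. The 5 further probe sets of Cnn3 differed by -0.24 to -0.35, all below 0. Most Cnn3 probe sets, the one used among them, are of a type whose probes can match other transcripts, so they are not independent checks. The further probe set that is not of this type differed by -0.30, and there the genotypes overlapped. Cnn2, the calponin found in many cell types, differed by -0.06, transgelin-2 (Tagln2) by -0.28 and the actin crosslinker gene Actn4 by -0.32. The tropomyosin genes Tpm3 and Tpm4 differed by 0.16 and 0.00, and the light chain gene Myl6 by 0.15, with intervals that include 0.

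Focal adhesion and anchorage genes had a median difference of -0.20 over 6 genes, of which 0 passed in either direction in limma, also at an unadjusted p under 0.05, and 5 were below 0. Zyxin (Zyx), which gathers at adhesions under tension, ranged from 10.10 to 11.21 in mutants and from 10.26 to 11.62 in controls, and differed by -0.32. The crosslinker gene Actn1 differed by -0.31, the PDZ and LIM protein gene Pdlim5 by -0.24, vinculin (Vcl) by -0.17 and filamin A (Flna) by -0.09. Talin (Tln1), which links integrins to actin, went the other way at 0.26 (95% interval -0.18 to 0.70). For the probe set used, the ranges of the genotypes overlapped in each of these 6 genes. A dimmer probe set of Tln1 differed by 0.53 with every mutant above every control.

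Srf gave 9.24, 9.43, 9.67 and 9.86 in mutants 1 to 4, against 9.28, 9.12, 9.87 and 10.25 in controls 1 to 4. The genotypes overlapped, and the difference was -0.08 (95% interval -0.67 to 0.51). Myocd, the muscle cofactor of SRF, gave 5.86, 5.71, 5.94 and 6.13 in mutants 1 to 4, against 5.83, 5.86, 5.88 and 5.87 in controls 1 to 4. It lay below the median probe set on all 8 arrays, and the difference was 0.05. The genes whose windows held an exact CArG match above differed by -0.27 for Myl9, -0.17 for Vcl, -0.08 for Srf, -0.06 for Cnn2 and 0.15 for Myl6, and none passed the test.

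Most of the 34 genes varied together between arrays of 1 genotype. Mutant 4 was the highest mutant array for 26 of the 34 genes, against 41.1% of all genes, and mutant 1 the lowest for 21, against 27.3% of all genes. Control 4 was the highest control array for 23, against 30.2% of all genes, and control 2 the lowest for 19, against 25.0%. For the smooth muscle genes the mean deviation from each gene's average over 8 arrays was -0.44, -0.19, -0.26 and 0.20 in mutants 1 to 4, against -0.07, -0.13, 0.30 and 0.57 in controls 1 to 4. The nonmuscle genes ran from -0.26 to 0.10 in mutants and from -0.05 to 0.28 in controls, with the same arrays at the top. The focal adhesion genes ran from -0.36 to 0.23 in mutants and from -0.23 to 0.39 in controls. In all 3 role groups mutant 4, control 3 and control 4 were above the average and the other 5 arrays below it, as the plot of deviations against macrophage markers shows.

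**Figure D3:**
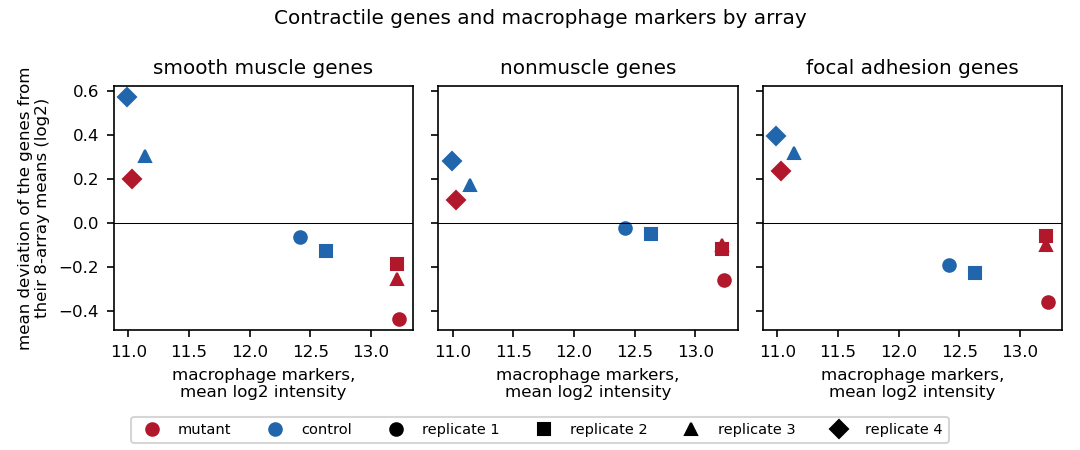
Mean deviation of each role group from its gene averages (vertical axis, log2) against the mean log2 intensity of the macrophage markers (horizontal axis), 1 point per array. The 3 arrays near 11 on the horizontal axis, mutant 4 and controls 3 and 4, lie above 0 in every panel and the other 5 below.

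These 3 arrays were also the lowest in the macrophage markers. All 3 belong to the second hybridisation batch, so the macrophage level is partly confounded with batch. The macrophage mean also leaned by genotype, from 11.03 to 13.24 in mutants and from 10.99 to 12.63 in controls. A covariate of this kind can take up part of a genotype difference, and how much was not tested. In the fit that adds the macrophage mean, its slope was below 0 for 31 of the 34 genes, against 60.0% of all genes. The macrophage values fall into separate clusters of arrays, so the relation was not tested. With this covariate the genotype difference was below 0 for 15 of the 34 genes, against 47.3% of all genes, and the median over the 34 genes was 0.01, against -0.21 without it. The medians were -0.01 for smooth muscle, 0.01 for nonmuscle and 0.05 for focal adhesion genes. Csrp2 and Limch1 still fell in this fit, and no other of the 34 genes passed. Tagln differed by -0.01, Actg2 by 0.0041 and Zyx by 0.14, while Myl6 read 0.35 (SE 0.11) and Cnn1 0.31.

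**Figure D4:**
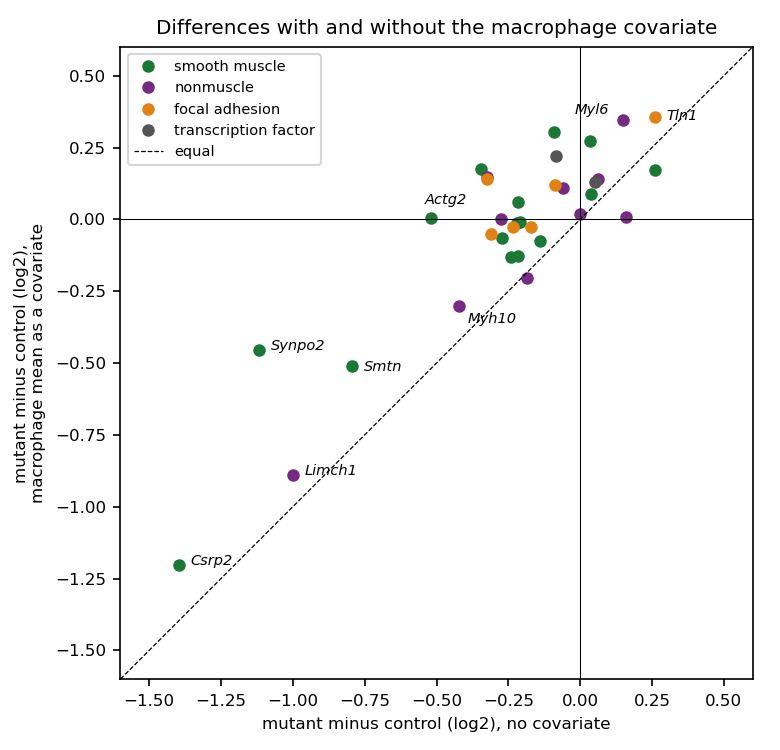
Genotype difference of the 34 genes (log2, mutant minus control) with the macrophage mean as a covariate (vertical axis) against the difference without it (horizontal axis), coloured by role group. Csrp2 and Limch1 stay near the dashed line of equality, and most genes between -0.5 and 0 on the horizontal axis move to around 0 on the vertical axis.

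Single arrays moved the group medians as well. Without mutant 4 the median over the 34 genes was -0.29, and without control 4 it was -0.09. Control 4 stood apart in 2 of the 10 palatal mesenchyme markers. Meox2 read 5.77 there, against 8.05 to 9.88 on the other arrays, and Pdgfra read 10.10, against 12.23 to 12.98. Over the other 8 markers control 4 averaged 10.61, and mutant 1 was lower at 10.30. The part of this in the result was not tested.

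Related genes were compared within arrays in 16 pairs from 7 families. The genotypes did not overlap, with exact two-sided permutation p = 0.0286 and 0.152 after adjustment over the 16 pairs, for Csrp2 and Csrp1, for Myl6 and Myl9, and for Tpm2 and Tpm4. Myl6 over Myl9 averaged -3.89 ± 0.16 on the log2 scale in mutant arrays and -4.31 ± 0.11 in control arrays (SD, n = 4 each). Myl6 was thus higher relative to Myl9 in each mutant array than in any control array. Each of these genes was read by 1 probe set, so no second probe set checks the ratio. Tpm2 over Tpm4 averaged -0.04 ± 0.07 in mutant arrays and 0.18 ± 0.13 in control arrays (SD, n = 4 each). The other 13 pairs had larger p-values. Transgelins differed in their change by 0.07, the alpha-actinins Actn1 and Actn4 by 0.01, and Tpm1 and Tpm2 by -0.00232.

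Most further probe sets had the same sign. Of 53 further probe sets of 22 genes, 44 had the sign of the one used, and of the 35 brighter than the median probe set 32 did. Among those 35, 8 were lower and 1 was higher at an unadjusted p under 0.05, against 12.6% and 6.72% of all probe sets as bright. Of the 8, 4 read Cnn3 and 2 read Tpm2, so most of them repeat 2 genes, and none of the 53 passed over all probe sets in limma. Beside the Cnn3 probe sets described above, Tpm2 had further values of -0.28, -0.45 and 0.05, and Pdlim5 had 6 further probe sets between -0.66 and -0.20.

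Other genes of the pathway were read from a list of 71 genes, of which 68 were measured. None rose or fell over all genes in limma; at an unadjusted p under 0.05, 7 were lower (10.3%) and 5 higher (7.35%), close to the 9.69% and 5.84% of all genes. The median was -0.04, and 41 were below 0 (60.3%, against 51.7% of all genes). The genotypes did not overlap for 4 with mutants lower (5.88%) and 2 with mutants higher (2.94%), against 5.18% and 2.89% of all genes. Diaph2, a formin that extends actin filaments, differed by 0.59 (SE 0.09, adjusted p = 0.0990 in limma) and Pfn2, which supplies actin monomers, by -0.74 (SE 0.14, adjusted p = 0.142), both without overlap. The small GTPase gene Rhob differed by -0.37 and the filament protein gene Nexn by -0.70, also without overlap. Differences were -0.73 for the integrin activator gene Fermt2, 0.58 for paxillin (Pxn), 0.43 for the light chain gene Myl12b and -0.48 for the LIM protein gene Pdlim3, which was dimmer than the median probe set. The 5 SRF cofactor genes, among them Mrtfa and Mrtfb, had a median of -0.000573.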

How the data were processed

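Total RNA of each culture was biotin-labelled by the standard Affymetrix protocol, per the labels' protocols. The authors deposited log2 intensities, 1 per probe set and array, made with RMA per the submitters' processing notes; no source used here gives its version. Values ran from 3.21 to 15.18 and were used without further scaling. Of 45101 probe sets, 34945 had 1 gene symbol, 932 had several, 9160 had none listed and 64 were controls. Symbols were updated through NCBI RefSeq (GRCm38.p6) for 34741, and the brightest probe set per gene gave 18193 genes.

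Differences were fitted over all genes by lmFit and eBayes of limma 3.58.1 (R 4.3.3), two-sided, as mutant minus control, adjusted with Benjamini-Hochberg at a threshold of 0.05. Intervals are limma's 95% intervals. The number of arrays, 4 per genotype, limits the precision. On simulated data with 18193 genes the fit found 76% of genes shifted by 1 and 99% of those shifted by 2 (log2), with 11 false calls among 186. The simulated noise was independent between genes, and 100 genes were shifted by each size, while 16 genes passed in these data. More shifted genes make the adjusted threshold easier to pass, so these shares are no estimate of what the real arrays can detect.

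The 34 genes, the role groups, the lists, the batches and the alternatives were chosen with earlier results of these data known. Values per array were printed for genes past the threshold, genes without overlap, genes at an unadjusted p under 0.05, and Acta2, Tagln, Cnn1, Myh11, Srf and Myocd; Csrp1 was added after its values were seen. Of the other pathway genes, the 8 with the smallest p were named. Batches were read from the intensities of the hybridisation and labelling control probe sets. The slope on the macrophage mean and the palatal markers without Meox2 and Pdgfra were also read after seeing the data.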

Additional observations from a re-analysis of the deposited data

Results flagged for a closer look

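In each of 68 sets of 4 arrays (34 genes, 2 genotypes), the highest or lowest array was checked for a gap that takes up most of the set's range. Chance gives such a gap in about 1 of 20 sets, and 3 were found. Csrp2 read 12.66 in control 3, with the other controls between 12.17 and 12.24. Limch1 read 7.72 in mutant 4, with the other mutants between 7.60 and 7.61. Tpm3 read 13.18 in control 3, with the other controls between 13.55 and 13.63. Csrp2 differed by -1.28 without control 3 and Limch1 by -1.03 without mutant 4.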

How the results depend on the processing

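The direction of Csrp2 and Limch1 held in all 21 alternatives, but Csrp2 passed in 10 and Limch1 in 11. For most alternatives the direction could not have changed. Several keep the same difference, and with every mutant below every control, leaving out arrays cannot reverse it. The count of genes that fell among the 34 was 2, and it was 0 with quantile normalization, with a replicate block, with a labelling block and in the second hybridisation batch alone, and 1 with all probe sets averaged. In these 4 settings with 0, limma gave 6 to 11 of the 34 genes lower and 0 to 2 higher at an unadjusted p under 0.05. With quantile normalization these were 6 and 0, against 1456 and 1166 of all 18193 genes. With the labelling block they were 7 and 2, against 2561 and 1396. The counts for the other 2 settings are given below. With 1 array left out the count past the threshold among the 34 ran from 0 to 2. It was 3 of 34 in the first hybridisation batch alone, where Smtn also passed, against 2085 of all 18193 genes in that setting. The count over all genes was 16, against 1470 with array weights, 41 at a threshold of 0.10, 0 with a replicate block, 2085 in the first hybridisation batch alone, 0 in the second, 2 with the labelling batch and 57 with the macrophage covariate; it ran from 0 to 1316 with 1 array left out. At an unadjusted p under 0.05 in limma, the second batch alone had 641 genes lower and 306 higher, with 6 and 0 among the 34. The replicate block had 2272 lower and 1556 higher, with 11 and 2 among the 34. Samples of the same number correlated from -0.09 to 0.47 in their deviations, with 3 of 4 over 0.1. Of the mutant arrays 0 of 4, and of the control arrays 2 of 4, correlated best with the array of their own number. The labels give the numbers no meaning, so they were not taken as pairs, but a shared origin was not tested further. The cause of these changes was not tested.

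Over all alternatives the median ran from -0.29 to 0.0060 for all 34 genes, -0.33 to -0.011 for smooth muscle, -0.17 to 0.0125 for nonmuscle and -0.33 to 0.0462 for focal adhesion genes, with the values nearest to or above 0 from the macrophage covariate. The sign of 18 of the 34 genes held in all alternatives, and the other 16, none past the threshold, changed sign in at least 1. With the macrophage covariate the reversed values were 0.0041 for Actg2, 0.15 for Actn4, 0.31 for Cnn1, 0.11 for Cnn2, 0.12 for Flna, 0.061 for Lmod1, 0.17 for Myh11, 0.22 for Srf, 0.0019 for Tagln2 and 0.14 for Zyx. With array weights they were 0.15 for Cnn1, -0.0495 for Csrp1, -0.0061 for Myocd and 0.0886 for Srf. In the first hybridisation batch alone they were 0.29 for Cnn1, -0.15 for Csrp1, 0.13 for Lmod1, -0.0586 for Myocd, 0.13 for Srf and 0.0647 for Vcl. In the second they were 0.0105 for Cnn2, -0.11 for Myh9 and -0.0465 for Tpm4. With the labelling batch Csrp1 read -0.0124, and with centred arrays Tpm4 read -0.0315. With 1 array left out the ranges were -0.28 to 0.20 for Cnn1, -0.15 to 0.0707 for Cnn2, -0.14 to 0.20 for Csrp1, -0.0047 to 0.0817 for Des, -0.19 to 0.0331 for Flna, -0.60 to 0.0158 for Myh11, -0.0227 to 0.12 for Myocd, -0.25 to 0.12 for Srf and -0.0241 to 0.0336 for Tpm4. Dim probe sets, such as Myocd and most of Myh11, give little information on change.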
